A study of Mus musculus with 16 samples.

Results

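The densest stretch of mouse chromosome 10 held 341 of the 75363 open chromatin regions that the authors listed for regulatory T cells (Treg cells, the CD4+ T cells that restrain other immune cells). It runs from 79 to 81.5 Mb on mm9 and was chosen because it contains the 1 Mb bin with the most regions of the whole list. Every region that overlapped these bounds was taken, and the 4197 other regions of chromosome 10 served for comparison. The members were thus chosen by region number, so the counts, densities and spacings below describe the stretch and carry no test.

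The list was made by ATAC-seq, in which a transposase inserts adapters into DNA that is free of nucleosomes, on CD4+CD25+ Treg cells of C57BL/6 mice. There were 16 samples in 8 groups of 2, from 8 mice, and each mouse gave a sample from a non-lymphoid tissue and a sample from its spleen. Of these mice 2 gave visceral adipose tissue (VAT) of the epididymal depot, 2 gave injured hindlimb muscle and 4 gave colonic lamina propria, where the titles distinguish Nrp1p from Nrp1n samples, 2 of each; the labels name no transgene, deletion or drug treatment, and give no age. The 8 groups are VAT, Muscle, Colon_Nrp1p and Colon_Nrp1n with the spleen groups Spl_wVAT, Spl_wMus, Spl_wCol_Nrp1p and Spl_wCol_Nrp1n. All 16 samples share 1 list of positions without a value per sample, so a region open in a single tissue and one open in all of them look alike here. No difference between tissue and spleen can be given from it, the labelled cell type could not be checked against its markers, and read depth is unknown.

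Open chromatin in T cells lies mainly at promoters, which are open at most active genes in many cell types, and at enhancers, which lie between and within genes and differ more between cell types. Gene-dense parts of a genome tend to carry many accessible sites at short distances from each other. This part of chromosome 10 is known for such a block of genes, whose counterpart lies on the short arm of human chromosome 19. Among its genes with roles in lymphocytes are Gna15, a G protein subunit of blood cells, S1pr4, a lymphocyte receptor for sphingosine 1-phosphate, Gadd45b, a stress-induced regulator of MAP kinase signalling, Stk11, the energy-sensing kinase LKB1, and Gzmm, a granzyme. Others are Tcf3, which encodes the E2A transcription factors of lymphocyte development, Dot1l, a histone methyltransferase, and Elane, Prtn3 and Cfd, genes of neutrophil proteases and of the adipocyte factor adipsin.

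The gene table at hand, of assembly GRCm38.p6, is of another build and was used only for the order of genes. The 45 symbols of 4 gene lists were picked as known genes of this block, so that they lie together on chromosome 10 in the table follows from the choice. From Cdc34, a ubiquitin-conjugating enzyme, to Tle2, a corepressor, they fall within a block of 114 consecutive protein-coding genes, which is 11.4% of the 1001 on the chromosome. Prtn3, Elane and Cfd follow each other directly, as do Lmnb2 and Gadd45b, S1pr4 and Gna15, and Uqcr11, Tcf3 and Onecut3. Positions of these genes on mm9 were not used here, so no region was assigned to a gene, and how many regions lie at promoters was not determined. A relation between gene density and the number of regions was not tested.

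Regions were 4.14 times as dense in the stretch as on the rest of the chromosome, at 136.4 against 32.9 regions per Mb. The stretch makes up 1.92% of the chromosome's length and held 7.51% of its 4538 regions. Together the 341 regions covered 68.5 kb, or 2.74% of the stretch, against 0.668% of the rest of the chromosome. Among the 592 windows of 2.5 Mb in the genome that held 50 or more regions, it ranked second by number. The windows were laid out from the bounds of the stretch, so other dense parts can be split between windows, which favours its rank. The window with more, 350 regions, was on chromosome 17 (34000001 to 36500000), and the third, with 309, was on chromosome 11 (96500001 to 99000000).

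The regions did not reach across the whole stretch. The first member lay at 79017713 to 79018067 and the last at 81111624 to 81111842, which left 388 kb at the distal end without a region. After the last member no region was called for 398.9 kb, up to a 173 bp region at 81510740 to 81510912, just outside the distal bound. Only 52 of the 4537 neighbour pairs of chromosome 10 were farther apart. At the proximal bound the nearest region outside lay at 78996461 to 78996664, with a gap of 21.0 kb to the first member. Such empty lengths are places without a call, which does not show that the DNA there is closed. Measured up to its last region, the stretch held 161 regions per Mb.

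**Figure D1:**
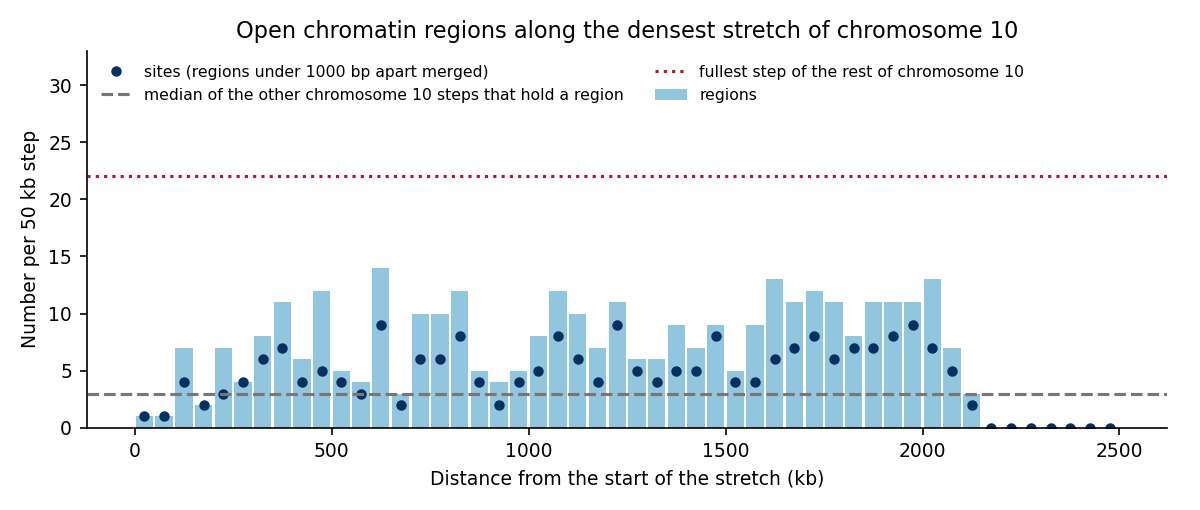
Number of regions (bars) and of sites (points, regions under 1000 bp apart merged) in each 50 kb step (vertical axis) by distance from the start of the stretch in kb (horizontal axis); the dashed line is the median of the other chromosome 10 steps that hold a region (3) and the dotted line the fullest step of the rest of the chromosome (22). Counts stay between 3 and 14 over 39 consecutive steps and drop to 0 for the last 7.

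In steps of 50 kb, the variance of the counts was lower relative to their mean in the stretch than on the rest of the chromosome. Of its 50 steps, 43 held a region, with a median of 8 regions in those steps, an interquartile range of 5 to 11 and a maximum of 14. On the rest of the chromosome 1543 of 2550 steps (60.5%) were empty, and the median of the 1007 others was 3. The variance of the counts was 2.61 times their mean over all 50 steps and 5.04 times over all steps outside. In steps that held a region alone the variance was 1.50 and 2.52 times the mean. Over all steps the means were 6.82 regions in the stretch and 1.65 outside. The lower ratios of the stretch therefore do not stand for a smaller variance. Steps with 5 or more regions made up 70% of the stretch (35 of 50) and 14.4% of the rest (368 of 2550). Steps with 10 or more made up 34% (17 of 50) and 2.71% (69 of 2550).

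No single step of the stretch led the chromosome. Its fullest, at 79600001 to 79650000 with 14 regions, tied for rank 12 among the 2600 steps of chromosome 10. The fullest step of the chromosome, with 22 regions, was at 67700001 to 67750000, far outside. The next fullest of the stretch, with 13 regions each, were at 80600001 to 80650000 and 81000001 to 81050000. Steps starting at 79450001, 79800001, 80050001 and 80700001 held 12 each. The 7 empty steps were all consecutive, from 81150001 to 81500000. The sparsest filled steps stood at the proximal end, where the steps starting at 79000001 and 79050001 held 1 region each and the one starting at 79150001 held 2.

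**Figure D2:**
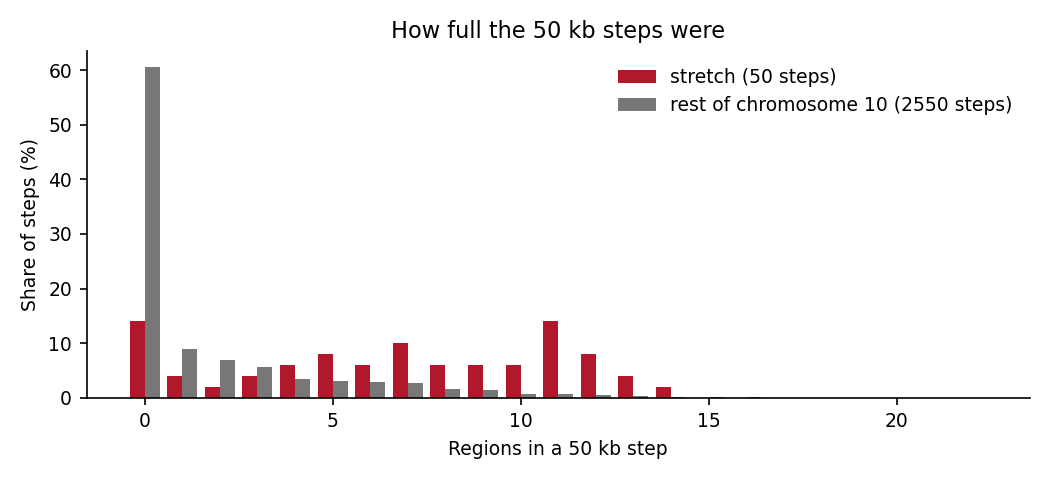
Share of 50 kb steps in percent (vertical axis) by the number of regions they hold (horizontal axis), for the 50 steps of the stretch and the 2550 of the rest of chromosome 10. The rest has 60.5% empty steps and a tail to 22 regions, while the stretch has 14% empty steps, most others at 4 to 12 regions and none above 14.

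With 3 or more regions required per step, the longest run of steps in the stretch stood first in the list. From 79200001 to 81150000, 39 consecutive steps (1.95 Mb) each held 3 or more regions, and this run contained 330 regions, 96.8% of the members. It was the longest of 4592 such runs in the list. The next longest, of 33 steps, lay on chromosome 4 (132050001 to 133700000), and the next longest of chromosome 10, of 18 steps, at 95300001 to 96200000. With only 1 region required per step, the run began 1 step before the proximal bound and spanned 44 steps. It was then at rank 4, after runs of 55 steps on chromosome 7, 48 on chromosome 4 and 47 on chromosome 11. The chromosome 7 run was longer but thinner, with 331 regions in its 55 steps against 343 in the 44.

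Each block of 500 kb held more regions than the one before it, up to the last, which was mostly empty. The 5 consecutive blocks of 500 kb held 59, 72, 85, 102 and 23 regions. The median gap was 4652 bp in the first block and 2674 bp in the fourth, with wide intervals that overlap (869 to 8052 bp and 1576 to 3775 bp, 95% from binomial ranks). Median widths were 188, 190.5, 194, 190 and 183 bp. The share of neighbour pairs under 500 bp apart was 31.0% in the first block (18 of 58), 31.0% in the second (22 of 71), 16.7% in the third (14 of 84), 24.8% in the fourth (25 of 101) and 22.7% in the fifth (5 of 22). The exact binomial 95% intervals of these shares overlap, so no order can be read from them. The third block, from 80000001 to 80500000, held more regions than the first 2 and fewer close pairs. This is a difference in counts only.

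Neighbouring members lay 2914 bp apart in the median (95% interval 2174 to 3738 bp), against 5123 bp (4680 to 5476 bp) on the rest of the chromosome. Of the 32 windows of 2.5 Mb on chromosome 10 with 50 or more regions, the stretch had the shortest median gap, and the others ranged from 3009 to 13084 bp. Among all 592 windows it stood at rank 22 from the lowest. The interquartile range of gaps was 517 to 8307 bp in the stretch and 608 to 16058.5 bp outside. The lower quartiles therefore lay near each other, while the upper quartile outside was 1.93 times that of the stretch and the 90th percentile 2.36 times.

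**Figure D3:**
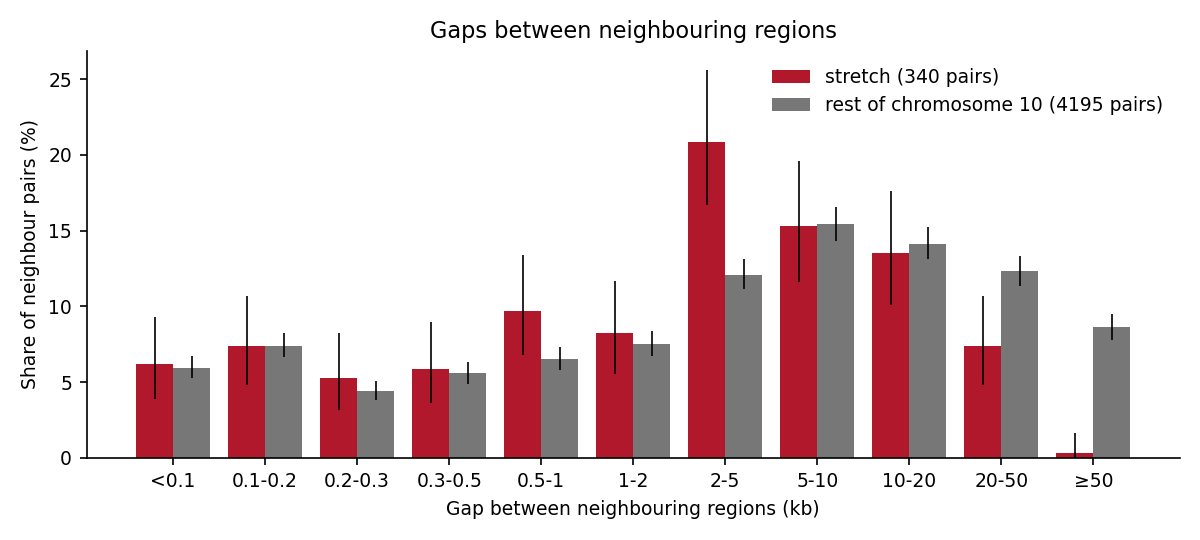
Share of neighbour pairs in percent (vertical axis) by their gap in kb (horizontal axis), for 340 pairs of the stretch and 4195 pairs of the rest of chromosome 10; error bars are exact binomial 95% intervals for counting error. Shares under 0.3 kb nearly coincide, gaps of 2 to 5 kb are 20.9% against 12.1%, and gaps of 50 kb or more are 0.294% against 8.63%.

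The difference in spacing sat mainly at gaps of 2 to 5 kb and of 20 kb or more. Gaps of 500 to 1000 bp were 9.71% against 6.51% outside, with intervals that overlap (6.78 to 13.4% and 5.78 to 7.30%). Shares were close at 5 to 10 kb (15.3 against 15.4%) and at 10 to 20 kb (13.5 against 14.1%). Gaps of 2 to 5 kb made up 20.9% of pairs in the stretch (71 of 340, interval 16.7 to 25.6%) and 12.1% outside (507 of 4195, 11.1 to 13.1%). By this share it stood at rank 1 of the 32 windows of chromosome 10, where the next was at 20%, and at rank 28 of 592 in the genome. Gaps of 20 kb or more made up 7.65% (26 of 340) and 21.0% (879 of 4195). By the latter share it stood at rank 4 of 592 from the lowest. A gap of 50 kb or more occurred once between members, against 362 times outside. Of the 5 longest gaps, 3 began in the first 4 steps. The longest, 53964 bp, separated the regions at 79058061 to 79058260 and 79112225 to 79112398, followed by 39993 bp from 79018067 and, farther on, 38424 bp from 80165417, 33822 bp from 79175462 and 29237 bp from 80601211.

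Close pairs were about as frequent in the stretch as elsewhere. Under 500 bp lay 84 of 340 pairs, or 24.7% (interval 20.2 to 29.6%), against 23.4% (22.1 to 24.7%) on the rest of the chromosome and 22.2% in the whole list. The stretch ranked 11 of 32 on chromosome 10 by this share and 182 of 592 in the genome. Among the pairs under 1000 bp, the median distance between region centres was 446.5 bp in the stretch (117 pairs) and 438 bp outside (1253 pairs). The closest pair, 79340445 to 79340660 and 79340664 to 79340813, was 3 bp apart. Pairs 23 bp apart lay at 80052120 to 80052456 and at 80639543 to 80639954.

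To separate close pairs from spacing, regions under 1000 bp apart were merged into 1 site. The 341 regions formed 224 sites, or 89.6 per Mb against 23.1 on the rest of the chromosome, a ratio of 3.88. A site held 1.52 regions in the stretch and 1.43 outside, a ratio of 1.07. By this measure the stretch ranked 7 of 32 windows on chromosome 10 and 65 of 592 in the genome, counted from the highest. Most of the 4.14 ratio in region density was thus a ratio in sites, and little of it a ratio in regions per site. The median gap between sites was 5627 bp (4899 to 6959 bp) against 10012.5 bp (9484 to 10693 bp). A site stood on average every 9.43 kb up to the last member.

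Sites of 2 or more regions made up 36.2% of the sites (81 of 224, interval 29.9 to 42.8%) and 28.4% outside (837 of 2944, 26.8 to 30.1%), and held 58.1% and 49.8% of the regions. By size, 54 sites had 2 regions (24.1%, against 18.7% outside), 18 had 3 (8.04 against 6.49%) and 9 had 4 (4.02 against 2.41%). No site had more than 4, whereas 24 of 2944 sites outside did, up to 7. The 9 sites of 4 lay in steps 3 to 35, and the filled steps after these held none. They began at 79131583, 79371085, 79495509, 79610718, 80040134, 80163552, 80391361, 80568327 and 80719437. The widest of them, at 80391361 to 80393424, spanned 2064 bp with 666 bp in regions, and the narrowest, at 79131583 to 79132634, spanned 1052 bp with 554 bp in regions.

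Linked at 10 kb, the members formed 73 groups, of which 9 held 10 or more regions, or 3.6 such clusters per Mb against 0.471 on the rest of the chromosome. With links of 5 kb only 1 such cluster was left, and after merging regions within 1000 bp there was likewise 1. The 9 clusters at 10 kb contained 33.1% of the members (113 of 341) and 19.2% of the other regions. The largest had 17 regions in 11 sites over 50.8 kb (80680142 to 80730986), and 7 clusters elsewhere on the chromosome were larger, up to 25 regions at 92605707 to 92669667. The following ones had 15 regions over 35.9 kb (80630449 to 80666342), 14 over 35.8 kb (79600196 to 79636006), 13 over 43.4 kb (81000296 to 81043735) and 12 over 26.3 kb (80139094 to 80165417). The most compact was a cluster of 11 regions in 5 sites at 79479262 to 79502712, with 4.69 regions per 10 kb. Members with no neighbour within 10 kb numbered 15, or 4.40%, against 14.6% outside.

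Longer links gave longer clusters in similar number. With 25 kb, 7 clusters of 10 or more held 319 of the 341 members. The largest, at 80630449 to 81111842, joined 108 regions over 481 kb and was the largest of chromosome 10 and the third largest of the list, whose largest had 112. A second, at 80203842 to 80601211, joined 65 regions over 397 kb. Between these lay the 29237 bp gap that starts at 80601211.

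**Figure D4:**
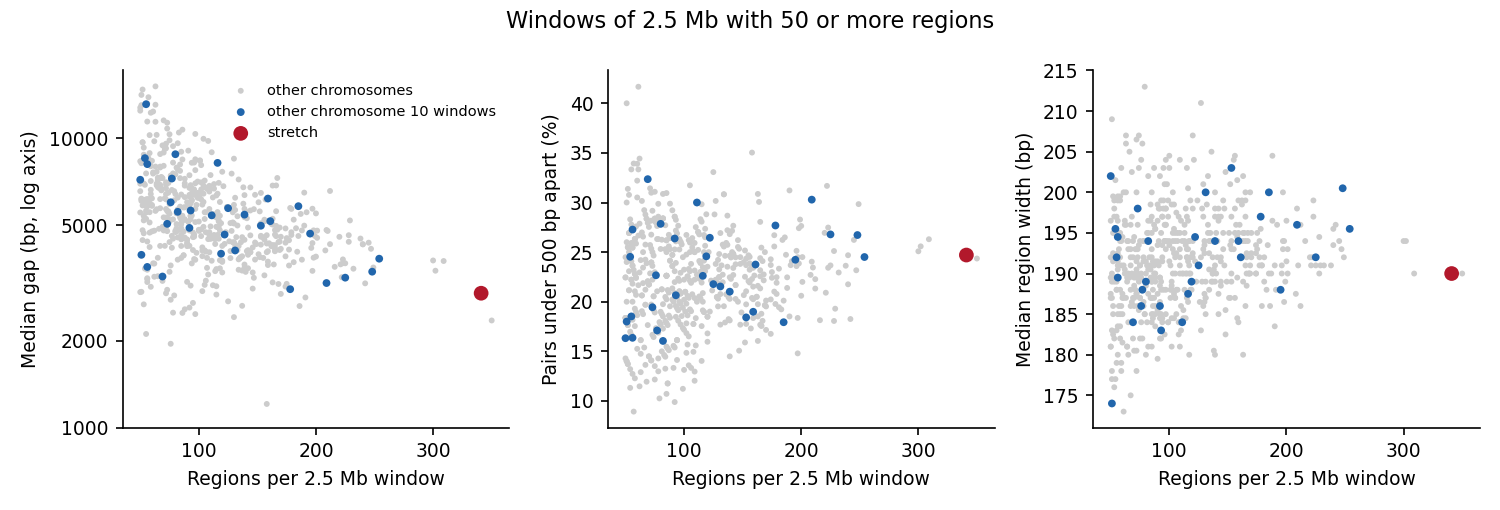
Median gap in bp (left, log axis), share of neighbour pairs under 500 bp apart in percent (middle) and median region width in bp (right) by the number of regions in 592 windows of 2.5 Mb with 50 or more regions (grey, other chromosomes; blue, chromosome 10; red, the stretch). The stretch is second by number (341) and has a short median gap (2914 bp). By close pairs (24.7%) it lies between the median (22.5%) and the upper quartile (25.5%) of the other windows. By width (190 bp) it lies near their median (191.5 bp).

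Width played no part in the choice and was close to that of the rest of the chromosome. The median was 190 bp in the stretch (95% interval 185 to 197 bp, from binomial ranks) and 192 bp (190 to 194 bp) on the rest of chromosome 10. The quartiles were 165 and 224 bp against 166 and 230 bp, and the means 200.9 ± 61.0 bp (SD over 341 regions) and 202.8 ± 58.2 bp (SD over 4197 regions). By median width the stretch ranked 20 of the 32 chromosome 10 windows, which ran from 174 to 203 bp, and 337 of 592 in the genome. The median of the rest of the chromosome lay within the interval of the stretch. Regions of 300 bp or more were 7.33% of the members (25, interval 4.80 to 10.6%) and 6.58% of the others (276, 5.84 to 7.37%).

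The widest members did not stand together. A 491 bp region at 80986777 to 80987267 was the widest, in a site of 3 regions. Next came 445 bp at 80139094 to 80139538, also in a site of 3, 400 bp at 79399751 to 79400150 in a site of 2, and 383 bp at 79724339 to 79724721 in a site of 3. The fifth, 377 bp at 80363498 to 80363874, stood alone, with 19162 bp to its left neighbour and 16322 bp to its right. Regions of 400 bp or more numbered 3 of 341 in the stretch and 39 of 4197 outside. The widest on the rest of the chromosome measured 592 bp.

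**Figure D5:**
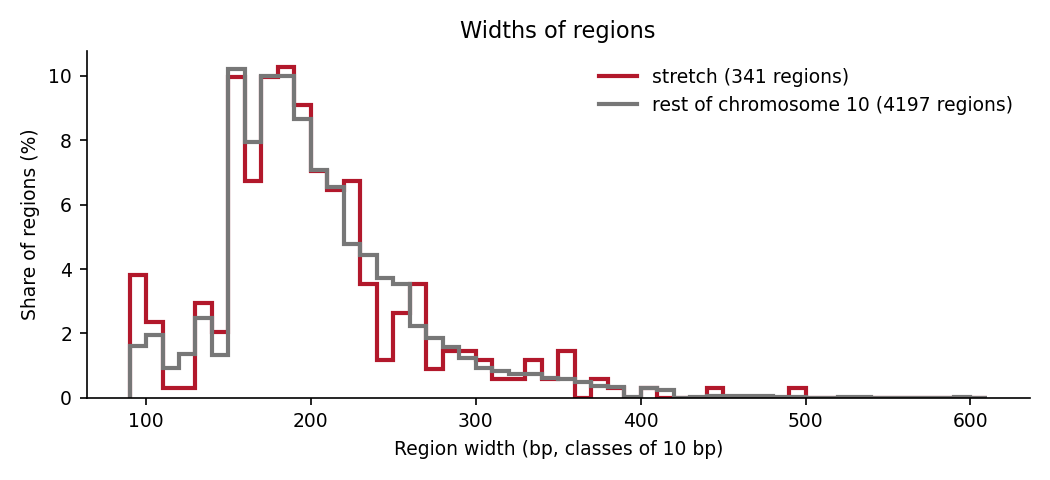
Share of regions in percent (vertical axis) by width in classes of 10 bp (horizontal axis), for the 341 members and the 4197 other regions of chromosome 10. The outlines nearly coincide around their medians of 190 and 192 bp. At the narrow end, 94 bp regions are 3.81% of the members (13 regions) and 1.60% of the others, a width picked out after its values were seen.

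The list holds 12 even widths, from 94 to 150 bp, at far more regions than the widths beside them. Of the members, 51 had such a width, or 15.0% (interval 11.3 to 19.2%), against 13.4% on the rest of the chromosome (561 regions) and 14.2% in the whole list. The narrowest, 94 bp, was the width of 13 members, or 3.81% (2.05 to 6.43%), against 1.60% (1.24 to 2.02%) outside and 1.79% of the list. It was picked out of the 12 after its values were seen. The commonest, 150 bp, was the width of 15 members, or 4.40%, against 5.00% outside.

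Widths of lone and of grouped members differed somewhat. Members that stood alone in their site had a median of 199 bp (143 regions, interval 188 to 208 bp) and those in sites of 2 or more had 186 bp (198 regions, 179 to 192 bp), and these intervals overlap. Outside the stretch the medians were 193 and 191.5 bp. The 12 even widths were found in 8.39% of the lone members (12 of 143, interval 4.41 to 14.2%). In shared sites they were 19.7% of the members (39 of 198, 14.4 to 25.9%), and outside the 2 shares were 9.82% and 16.9%. As these widths are all 150 bp or less, the shares and the medians are not separate results. The widest region of each shared site had a median of 215 bp in the stretch (81 sites, 206 to 231 bp) and 229 bp outside (837 sites, 223 to 234 bp), again with overlapping intervals.

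Beside the 2 windows nearest to it in number, the stretch had a like median width and an intermediate median gap. The chromosome 17 window (350 regions) had a median gap of 2347 bp (1873 to 2966 bp) and the chromosome 11 window (309 regions) 3764 bp (2577 to 4581 bp), on both sides of 2914 bp, with intervals that overlap that of the stretch. All 3 had a median width of 190 bp. Regions per site were 1.51 and 1.49 in these windows, against 1.52. Their longest gaps were 182553 and 86999 bp, against 53964 bp between members of the stretch. These gaps leave out any length without regions at the ends of a window, such as the 388 kb at the distal end of the stretch.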

How the data were processed

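ATAC-seq was done on 16 samples; nuclei of 10000 sorted cells each were transposed (60 min, 37 °C), and fragments under 600 bp were selected between PCR rounds, per the labels' protocols. The authors deposited 1 list of regions with chromosome, start and end in bp, per the file header, with no value per sample. The build was mm9, and HOMER 4.6, Bowtie2 2.2.4, Picard 1.130, SAMtools 1.3 and cutadapt 1.8.3 are named without roles, per the submitters' processing notes. Caller settings, pooling and any shift of cut positions are not given in the sources used. These decide which regions are listed and how wide they are.

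Positions are 1-based. Regions were put in steps, blocks and windows by their centre. A gap ran from the end of a region to the start of the next, and width was the number of bases from first to last. Gaps of the rest of chromosome 10 leave out those that cross a bound of the stretch. Chromosome 10 was taken as 130.0 Mb, from position 1 to its last region. That length, and the empty steps of the rest, include positions 1 to 3000000, where no region was listed. Windows of 2.5 Mb were laid on every chromosome except Y on a grid that includes the stretch. An over-represented width held more than 5 times the median count of widths within 8 bp, that median taken as at least 10. Intervals treat regions as independent and cover counting error only. No test was run: regions are not replicates and samples have no values. Named items were the fullest steps with ties, empty steps, the 5 largest clusters, the 5 widest regions, the 5 longest gaps and those beside the bounds; sites of 4, shortest gaps and the most compact cluster were added later. Members and lists were chosen with earlier results of these data known. Python 3.11.15, numpy 2.4.6, pandas 2.3.3 and SciPy 1.17.1 were used, and the functions were tested on simulated data.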

Additional observations from a re-analysis of the deposited data

How the results depend on the processing

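No paired analysis was possible because the file analysed gives positions for the 16 samples together, which also kept replicates from being left out. The alternatives for gene starts, GC content and motifs were not run without an annotation or genome of mm9. The density ratio of 4.14 stayed above 3.5 in every alternative run. It was 3.53 over the 1 Mb bins of the rest that hold a region, 4.62 against all other autosomes, and 4.90 with the stretch measured up to its last region, an alternative chosen after seeing the data. The highest count per step was 24 in steps of 100 kb, by construction, and 15 with the origin moved by 25 kb. The median gap rose to 5627 bp after merging within 1000 bp (10012.5 bp outside) and to 9061 bp with regions of median width or more (11704 bp outside), so it remained shorter than outside. Close pairs were 16.8% under 250 bp and 34.4% under 1000 bp (29.9% outside). Without the 12 even widths they were 15.9% against 18.0% outside, so the small difference at 500 bp turned its direction. Clusters of 10 or more fell from 9 to 1 with links of 5 kb and to 1 after merging within 1000 bp. The median width was 199 bp without the even widths (200 bp outside) and 236.5 bp for merged sites (222 bp outside). Read depth is unknown, so regions missed for lack of reads cannot be told apart from closed DNA.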
